A study of Mus musculus with 6 samples.

Results

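The genes described here are mostly those of the plasminogen system and of the start of blood clotting at the cell surface. They are the plasminogen activators Plat and Plau, the Plau receptor gene Plaur, the serpin genes Serpine2 and Serpinf1, tissue factor (F3), its inhibitor Tfpi, thrombomodulin (Thbd) and the membrane protease Fap. They were chosen by symbol, as every probe set that the platform annotation assigns to exactly 1 gene with one of these 9 symbols. Of the 9 genes, 8 were measured, with 14 probe sets, out of 18193 genes and 34945 probe sets with 1 gene. Serpine2 was not analysed here. Each gene was represented by its brightest probe set, the one with the highest mean log2 value over the 6 arrays, and the others are given beside it.

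Mouse embryonic fibroblasts, mesenchymal cells grown out of dissociated embryos, were compared on 6 Affymetrix arrays. There were 3 arrays of wild-type cells (titled MEF-WT) and 3 of cells labelled abl/arg knockout (titled MEF-DKO), a label for cells without the tyrosine kinases encoded by Abl1 (c-Abl) and Abl2 (Arg). All cells were of strain C57BL/6, from embryos at 14 days of gestation with the sexes pooled, and grew in medium with 10% serum. No treatment is named. How the knockout was made, and whether replicate arrays stand for different cultures, embryos or clones, is not given in the sources used here. The p-values therefore cover the spread among the 6 arrays, and this may be technical.

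Plasminogen is an inactive precursor in serum that tissue-type activator (Plat) or urokinase (Plau) cuts to plasmin, a protease that dissolves fibrin and degrades matrix. Urokinase works bound to its receptor on the cell surface, and serpins such as Serpine2 trap the activators. Tissue factor is the membrane receptor of factor VII that starts clotting, Tfpi blocks that step, and thrombomodulin turns thrombin towards activating protein C. Fibroblasts carry tissue factor and release plasminogen activators, and plasmin activity is part of how they move through matrix.

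The arrays had similar scales, with median signals between 13.4 and 14.7, and across genes every array correlated with those of its own group at 0.998 or above and with the other group at 0.905 at most. The brightest Abl1 probe set read 185 ± 4.46 in MEF-WT and 169.8 ± 8.22 in MEF-DKO (SD, n = 3 each; limma adjusted p = 0.107 over all probe sets), and that of Abl2 256 ± 9.30 and 254 ± 11.9 (limma adjusted p = 0.888). Of the other Abl1 probe sets, 1 went from 6.99 to 10.6 (log2 difference 0.21; limma adjusted p = 0.0012) and 1 from 16.05 to 22.9 (0.28; limma adjusted p = 0.00586), both higher in MEF-DKO with no overlap, and the other 2 Abl2 sets did not pass the test. The targeted genes were thus not clearly lower, where their probes lie relative to a deletion was not analysed here, and every direction below is that of arrays that carry the label MEF-DKO. Of the 10 fibroblast markers measured, 7 rose and 1 fell (80%, against 59.7% of all genes). Vim read 5288 and 7306, Pdgfra went from 9.99 to 1789, and Thy1 was at 8.22 and 7.59, below the median probe set (15.5). In bulk RNA, fewer cells of a type and less RNA per cell cannot be told apart.

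Among the 8 genes measured, F3 and Serpinf1 were higher in the MEF-DKO arrays and Tfpi, Plat and Plaur were lower, with no overlap between groups for any of these. Plau and Thbd passed the test as lower with mean signals below the median probe set in both groups, and Fap was near the floor in both groups. In all, 2 rose and 5 fell at a limma adjusted p under 0.05, where 24.2% of all genes rose and 35.5% fell, together 59.7%. A difference of at least 1 in log2(signal + 16), in addition, was seen for 4 of the 8 (15.8% of all genes). Plaur, 2.15-fold lower in mean signal, was at -0.98 on this scale and is not among them. The groups did not overlap for 6 of the 8 (64.7% of all genes). The median difference of the 8 genes was -0.15 on the log2 scale, against -0.03 for all genes. No test of the group as a set was run, so the counts stand only beside these shares. The values of each gene carry the description.

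**Figure D1:**
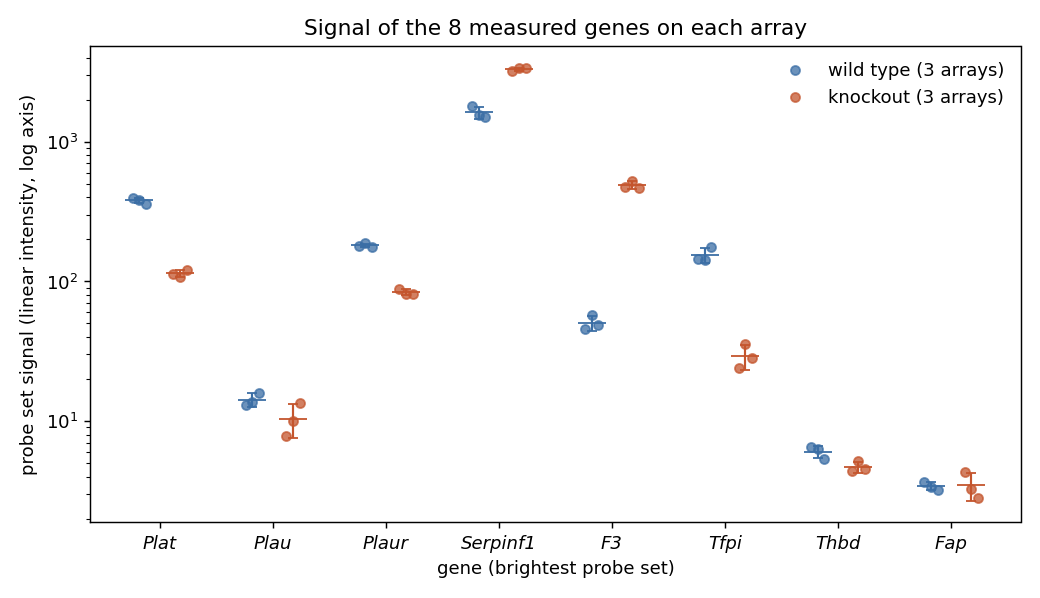
Probe set signal (linear intensity on a log axis) of the brightest probe set of each of the 8 genes on each array, with wild type in blue and the MEF-DKO arrays in orange; points are arrays, dashes means and bars SD (n = 3). The groups stand apart for Plat, Plaur, Serpinf1, F3 and Tfpi, while Plau, Thbd and Fap lie below 20 on every array.

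The sequences just before the start sites are shown for the genes with clear changes that the reference table held, since F3 is a textbook case of a gene under AP-1 and SP1 sites close to its start. They are the 250 bases before each RefSeq start (GRCm38.p6), which the table held for 5 of the 9 genes (Serpine2, Serpinf1, F3, Tfpi and Plaur); Plat, Plau, Thbd and Fap had no entry. Capitals mark matches on either strand to AP-1 (TGANTCA), TEAD (GGAATG), NF-kB (GGGANTTCC), SP1 (GGGCGG), EGR1 (GCGNGGGCG), a TATA box (TATAAA) and an E-box (CACGTG); EGR1 and SP1 matches can overlap. F3 lies on the plus strand at chr3:121723287-121723536, Plaur on the plus strand at chr7:24462233-24462482, Serpinf1 on the minus strand at chr11:75422624-75422873, and the 2 starts of Tfpi on the minus strand at chr2:84476760-84477009 and chr2:84474175-84474424.
F3: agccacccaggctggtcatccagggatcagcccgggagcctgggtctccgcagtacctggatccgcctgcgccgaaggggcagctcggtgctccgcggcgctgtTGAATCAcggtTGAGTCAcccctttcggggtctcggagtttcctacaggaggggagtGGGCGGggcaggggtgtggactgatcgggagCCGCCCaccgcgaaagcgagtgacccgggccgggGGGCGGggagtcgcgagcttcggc
Plaur: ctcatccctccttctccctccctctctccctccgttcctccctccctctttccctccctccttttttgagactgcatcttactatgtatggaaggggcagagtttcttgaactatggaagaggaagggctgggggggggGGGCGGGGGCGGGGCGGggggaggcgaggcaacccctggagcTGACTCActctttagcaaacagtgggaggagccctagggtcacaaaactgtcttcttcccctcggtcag
Serpinf1: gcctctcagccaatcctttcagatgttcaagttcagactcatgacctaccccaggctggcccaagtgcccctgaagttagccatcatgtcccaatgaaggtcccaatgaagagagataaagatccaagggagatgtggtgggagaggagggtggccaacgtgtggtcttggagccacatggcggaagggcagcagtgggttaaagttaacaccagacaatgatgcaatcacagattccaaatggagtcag
Tfpi, first start: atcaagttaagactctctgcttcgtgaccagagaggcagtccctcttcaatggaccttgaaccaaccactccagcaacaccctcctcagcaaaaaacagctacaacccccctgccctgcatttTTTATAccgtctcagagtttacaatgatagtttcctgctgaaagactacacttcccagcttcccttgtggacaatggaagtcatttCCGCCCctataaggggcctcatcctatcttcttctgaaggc
Tfpi, second start: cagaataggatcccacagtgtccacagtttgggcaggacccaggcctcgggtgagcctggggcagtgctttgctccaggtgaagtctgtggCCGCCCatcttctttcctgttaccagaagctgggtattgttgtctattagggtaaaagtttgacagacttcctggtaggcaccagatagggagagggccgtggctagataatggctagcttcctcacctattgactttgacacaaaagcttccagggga

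The F3 window held 2 AP-1 matches, beginning 146 and 135 bases before the start, and 3 SP1 matches. The Plaur window also held an AP-1 match, beginning 69 bases before the start, with 3 SP1 matches and an EGR1 match overlapping them. So an AP-1 match stood in the window of a gene that rose and of one that fell. Both Tfpi windows held 1 SP1 match, the first also a TATAAA match on the reverse strand 127 bases before the start, and the Serpinf1 window held no match. Of 32851 such windows in the table, 6.75% held an AP-1 match, 32.7% SP1, 4.7% EGR1, 12.4% TATAAA, 12.6% TEAD, 1.43% NF-kB and 6.02% the E-box. These matches are descriptions of letters, and no factor was measured at them.

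Plat, which encodes tissue-type plasminogen activator, fell. Its signals were 396, 385 and 360.3 in the wild-type arrays and 114, 108 and 122 in the MEF-DKO arrays. Every wild-type array was above every MEF-DKO array, and the means were 380.2 ± 18.1 and 114 ± 7.05 (SD, n = 3 each). The log2 difference was -1.61 ± 0.06 (SE; limma adjusted p = 9.6e-11), a 3.33-fold lower mean signal. The other Plat probe set was near the floor, at 7.93 ± 0.664 and 7.80 ± 0.589, with a difference of -0.01 (limma adjusted p = 0.89 over all probe sets), so with both averaged the difference was -0.81.

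Plau, which encodes urokinase, was dim in both groups. The brighter of its probe sets read 12.9, 13.8 and 16.005 in wild type and 7.88, 9.96 and 13.4 in the MEF-DKO arrays, and the groups overlapped. Its log2 difference was -0.20 ± 0.07 (SE; limma adjusted p = 0.0259). The call was lost without MEF-WT replicate 3, MEF-DKO replicate 1 or MEF-DKO replicate 2 (limma adjusted p = 0.0906, 0.121 and 0.0728), without the variance trend (adjusted p = 0.0708), and the value turned to 0.031 when arrays were scaled on poly-A spike controls. The other Plau probe set separated the groups more clearly, with signals of 16.7, 19.2 and 17.4 against 6.49, 5.64 and 5.97. Its difference was -0.61 ± 0.05 (SE, limma adjusted p = 2.03e-07 over all probe sets), and on log2(signal + 16) a change at signals this low is understated.

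Plaur, the membrane-anchored receptor that holds urokinase at the cell surface, fell, as Plat did. The wild-type arrays read 179, 187 and 177 and the MEF-DKO arrays 88.5, 81.9 and 81.7, so the groups were far apart and each was tight, with coefficients of variation of 2.98% and 4.58%. The log2 difference was -0.98 ± 0.06 (SE; limma adjusted p = 1.44e-08), a 2.15-fold lower mean signal. The single Plaur probe set ends in a, which marks a set shared by several transcripts of a gene, and it had no other to set beside it. Plaur is also high in macrophages. Of the 9 macrophage markers, 3 rose (Cd14 by 1.85, Lyz2 by 1.82 and Cd68 by 0.69) and none fell (33.3%, against 59.7% of all genes). The summed signal of the list was 179.5 to 195.9 in wild type and 552 to 590 in the MEF-DKO arrays. Most of that rise is the rise of Cd14, from 99.9 to 401. The other 6 did not pass the test: Ptprc, Itgam, Tyrobp and Adgre1 had group means below 5, Fcer1g was at 12.2 and 12.7, and Csf1r, the receptor for macrophage colony-stimulating factor, was at 34.5 and 30.3, above the median probe set. The part of other cells in the fall of Plaur was not tested beyond these values.

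Serpinf1, which encodes pigment epithelium-derived factor, a secreted serpin that does not inhibit proteases and restrains vessel growth, rose. Its brightest probe set read 1812, 1565 and 1500.2 in wild type and 3214, 3354 and 3377 in the MEF-DKO arrays. The lowest MEF-DKO value was well above the highest wild-type value. The means were 1626 ± 165 and 3315 ± 88.5 (SD, n = 3 each). The log2 difference was 1.03 ± 0.06 (SE; limma adjusted p = 1.16e-08), or 2.04-fold. The other Serpinf1 probe set went the same way, from 841 ± 81.5 to 1941 ± 93.2, with a difference of 1.19 ± 0.06 (limma adjusted p = 2.97e-09 over all probe sets).

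F3, tissue factor, had the largest rise of the group. Its signals were 45.3, 57.7 and 48.6 in the wild-type arrays and 475, 527 and 469 in the MEF-DKO arrays. Each MEF-DKO value exceeded every wild-type value by a wide margin. The means were 50.6 ± 6.43 and 491 ± 31.8 (SD, n = 3 each). The mean signal was 9.71-fold higher, and the difference in log2(signal + 16) was 2.93 ± 0.07 (SE, limma adjusted p = 4.76e-12). In absolute size the difference was larger than that of 98.3% of genes. F3 has only 1 probe set here, and it is also counted among the target genes of the coactivator YAP.

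Tfpi, the Kunitz-type inhibitor of tissue factor and factor VII, changed in the opposite direction. The brightest probe set read 146, 142 and 175 in wild type and 23.9, 35.7 and 28.2 in the MEF-DKO arrays, with no overlap. The means were 154 ± 18.3 and 29.3 ± 5.96 (SD, n = 3 each), a 5.27-fold lower mean signal. The difference in log2(signal + 16) was -1.91 ± 0.11 (SE, limma adjusted p = 5.78e-09), larger in size than that of 95.1% of genes. The 3 other Tfpi probe sets fell from 60.4 ± 7.40, 49.7 ± 10.6 and 33.4 ± 2.75 to 3.34 ± 1.17, 3.05 ± 0.173 and 3.43 ± 0.268, at or near the floor. Their log2 differences were -1.98, -1.77 and -1.35 (limma adjusted p = 5.93e-10, 7.2e-09 and 8.51e-10 over all probe sets). With the offset of 16 these understate the falls in mean signal, which were 18.1-, 16.3- and 9.76-fold. The brightest set, which ends in a, was the only Tfpi set still above the median probe set (15.5) in the MEF-DKO arrays.

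Tfpi and Thbd are typical of endothelial cells, which an embryo culture could hold. Of 12 endothelial markers, none rose and 2 fell (16.7%, against 59.7% of all genes). Egfl7 went from 291 to 32.1 (log2 difference -2.68) and Plvap from 64.3 to 31.5 (-0.77). The summed signal of the list was 406 to 438 in wild type and 120.4 to 134.5 in the MEF-DKO arrays, and most of that fall is the fall of Egfl7. The other 10 did not pass the test. Pecam1, Tek, Tie1, Icam2 and Emcn had group means below 5, Erg was at 4.87 and 5.58, Cldn5 at 8.44 and 7.70, Cdh5 at 9.13 and 9.46 and Esam at 10.7 and 9.002. Kdr, the main receptor for vascular endothelial growth factor, was at 19.8 and 16.7, above the median probe set. Of 7 epithelial markers, 3 fell (42.9%, against 59.7% of all genes), among them Krt19 from 36.7 to 9.38. The summed signal of the 7 was 90.4 to 108 in wild type and 52.3 to 62.2 in the MEF-DKO arrays. Most of that fall is the fall of Krt19. The part of other cells in the fall of Tfpi was not tested beyond these values.

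Thbd, thrombomodulin, read 6.47, 6.32 and 5.34 in wild type and 4.38, 5.18 and 4.52 in the MEF-DKO arrays. All of these lie below the median probe set. The groups did not overlap, and the log2 difference of -0.09 ± 0.03 (SE) passed at a limma adjusted p of 0.015. The call was lost without MEF-WT replicate 1, MEF-WT replicate 2 or MEF-DKO replicate 1 (limma adjusted p = 0.0594, 0.0518 and 0.0556) and without the variance trend (adjusted p = 0.056), and the value was 0.042 under poly-A spike scaling. Fap, fibroblast activation protein, a membrane-bound prolyl endopeptidase of activated fibroblasts, read 3.67, 3.40 and 3.23 against 4.30, 3.26 and 2.82. Its difference was 0.001 with a 95% interval of -0.06 to 0.06 (limma adjusted p = 0.975), at a signal where a change of the transcript may not show; under poly-A spike scaling it was 0.10 (limma adjusted p = 0.00485).

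**Figure D2:**
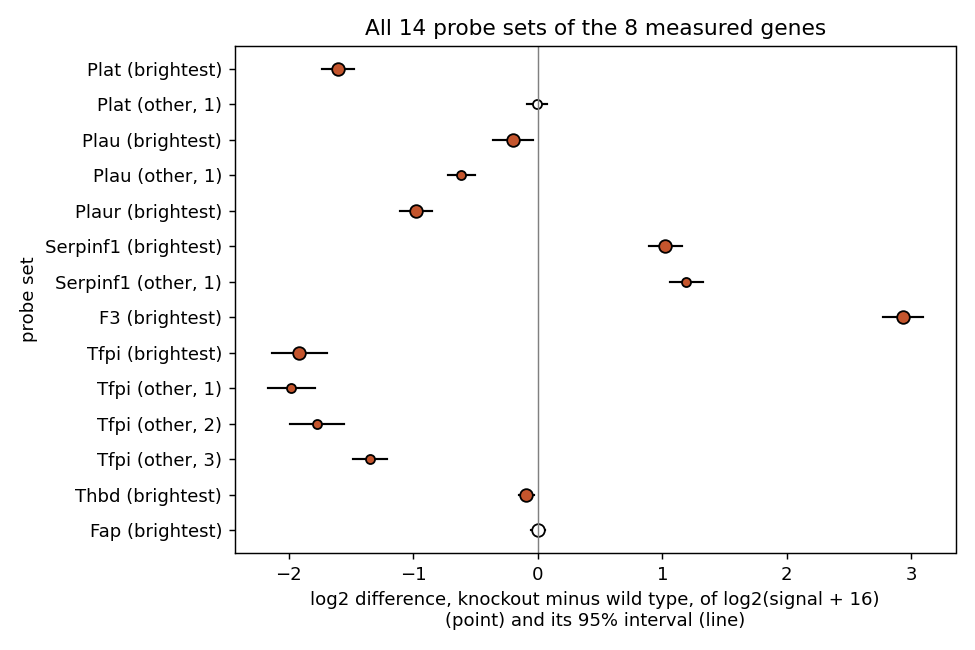
Log2 difference, MEF-DKO minus MEF-WT, of all 14 probe sets of the 8 genes on log2(signal + 16), with 95% intervals as lines; filled points passed a limma adjusted p of 0.05 over all probe sets and large points are the brightest set of a gene. The 4 Tfpi sets lie between -1.98 and -1.35, both Serpinf1 sets lie above 1, and the dim Plat set lies at -0.01.

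Over all 14 probe sets, 3 rose and 9 fell, where 52.2% of all probe sets passed in either direction. Of the 6 that were not the brightest of their gene, 1 rose (Serpinf1) and 4 fell (Plau and the 3 of Tfpi), each in the direction of the brightest set; the remaining one was the dim Plat set. Within groups, F3, Tfpi and Plau varied most among wild-type arrays, with coefficients of variation of 12.7%, 11.9% and 11.1%, and Plau, Fap and Tfpi among the MEF-DKO arrays, with 26.7%, 22.1% and 20.3%.

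The reference against which arrays are scaled moves all genes together. As deposited, 40.6% of the calls over all genes were rises; the share was 29.4% after median centring of the arrays, 80% with the poly-A spikes as reference and 21.1% with the hybridization spikes. The median difference of all genes, -0.03 as deposited, was 0.13 and -0.13 under these 2 spike scalings. With the poly-A spikes 10994 of 18193 genes rose and 2749 fell, and with the hybridization spikes 2968 rose and 11095 fell. Of the 8 genes described here, 3 rose and 3 fell with the poly-A spikes, with a median difference of 0.037. With the hybridization spikes 2 of them rose and 5 fell, with a median difference of -0.24. F3 stayed between 2.69 and 3.39, Serpinf1 between 0.75 and 1.56, Plaur between -1.22 and -0.50, Plat between -1.86 and -1.11 and Tfpi between -2.13 and -1.49 over the 2 spike scalings, with the same direction and call. The mean log2 signal of the poly-A controls differed between the groups by -0.541 and that of the hybridization controls by 0.279 (exact permutation p = 0.1 for each, two-sided, the smallest that 3 arrays against 3 allow). RNA quality, read as the log2 ratio of 3' to 5' actin signal, was 0.47 ± 0.03 in MEF-WT and 0.365 ± 0.01 in MEF-DKO (SD, n = 3 each; exact permutation p = 0.1). The same ratio for Gapdh was -0.152 ± 0.0417 and -0.171 ± 0.0361 (exact permutation p = 0.6). The part of RNA quality in these results was not tested.

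**Figure D3:**
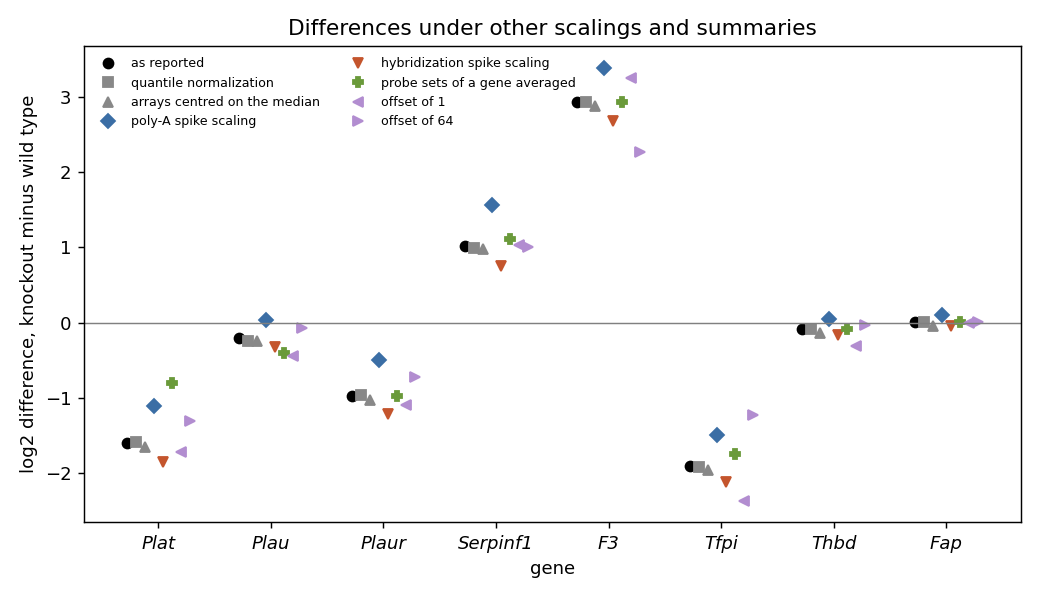
Log2 difference, MEF-DKO minus MEF-WT, of each of the 8 genes as reported (black circles) and under other array scalings, with probe sets averaged and with offsets of 1 and 64 in place of 16. F3 and Serpinf1 stay above 0 and Plat, Plaur and Tfpi below 0 throughout, while Plau and Thbd cross 0 under poly-A spike scaling.

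Other genes of plasminogen activation and clearance were taken from a list of 32, of which 28 were measured. Of these, 5 rose and 6 fell (39.3%, against 59.7% of all genes), 15 were below the median probe set in both groups, and the median difference was -0.03; with poly-A spikes as reference 22 rose and 2 fell, and with hybridization spikes 4 rose and 19 fell. Receptors that take up activator and serpin complexes were among those that rose. Lrp1, the endocytic receptor that clears such complexes together with the urokinase receptor, read 118, 144 and 128 in wild type and 709, 761 and 711 in the MEF-DKO arrays. Its log2 difference was 2.35 ± 0.06 (SE; limma adjusted p = 7.1e-12), and its other probe set had 2.20. Vldlr, a related receptor, rose by 1.71, with its 5 other probe sets between 1.80 and 2.91. Mrc2, a collagen receptor that associates with the urokinase receptor, rose from 131 ± 6.37 to 339 ± 21.8 (1.27). Its other probe set rose less, by 0.44.

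Anxa2, whose protein with S100a10 docks plasminogen and Plat on cells, fell from 2836 ± 67.3 to 1604 ± 23.3 (SD, n = 3 each; -0.82, limma adjusted p = 8.9e-10). Its bright probe set ends in a, and without such sets only a set near the floor is left, at -0.01. S100a10 itself was at 2217 and 2106 and did not pass. Mst1, which encodes a plasminogen-related growth factor, fell from 68.9 ± 2.52 to 5.84 ± 1.74 (-1.96). Plasminogen itself (Plg) read 5.84 and 5.62, and the antiplasmin gene Serpinf2 21.1 and 19.6, neither of which passed.

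Of 29 coagulation genes outside the group, 27 were measured; 3 rose and 9 fell (44.4%), 16 were below the median probe set in both groups, and the median difference was -0.02; 14 rose and 2 fell under poly-A and 3 rose and 18 fell under hybridization spike scaling. Pros1, which encodes protein S, a cofactor of protein C and of Tfpi, rose as F3 did. It read 74.8, 68.7 and 67.2 in wild type and 579, 622 and 629 in the MEF-DKO arrays, a log2 difference of 2.86 ± 0.05 (SE; limma adjusted p = 4.49e-13). F2r, the thrombin receptor PAR1, rose from 1312 ± 45.6 to 3208 ± 143 (1.28), with its other probe set at 1.32. Gas6, the relative of protein S that activates TAM receptors, moved the other way, from 70.5 ± 3.19 to 6.17 ± 0.888 (-1.96). Its other probe set was near the floor, at 8.36 and 7.42 (-0.06), and did not pass. Spint2, a Kunitz-type inhibitor of membrane serine proteases, fell by 0.72, and its other probe set, which ends in x, gave -1.56. Vkorc1, the vitamin K reductase needed to make functional clotting factors, fell by 0.52 as deposited but was at 0.014 under poly-A spike scaling.

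Of the 39 other serpin genes measured, some of them also in the lists above, 8 rose and 2 fell (25.6%), and 27 were below the median probe set in both groups; their median difference was -0.01. Under poly-A spike scaling 31 rose and 1 fell, and under hybridization spike scaling 6 rose and 21 fell. The genes that rose most were intracellular clade B serpins. Serpinb9b rose from 21.5 ± 2.10 to 123 ± 4.57 (1.89; limma adjusted p = 2.92e-10) and Serpinb9, the granzyme B inhibitor, from 90.7 ± 6.37 to 255 ± 17.9 (1.34), with its other probe set at 2.01. Serpinb6b rose by 1.19 and Serpinb1b by 1.09 (5.79 to 30.5), while Serpinb1a fell from 21.9 ± 2.77 to 2.81 ± 0.426 (-1.01). The other Serpinb1a probe set was near the floor, at 3.10 and 2.59 (-0.04), and did not pass. Clade B genes of mice are close copies of each other, and whether these probes tell them apart was not analysed here. Serpinh1, the collagen chaperone Hsp47, read 1648 and 1715 and did not pass.

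Fap belongs to the prolyl peptidases, and 9 related genes were measured, of which 3 rose and 4 fell (77.8%) with a median difference of -0.002; 5 rose and 1 fell under poly-A and 2 rose and 5 fell under hybridization spike scaling. Dpp7, a lysosomal dipeptidyl peptidase, rose from 64.8 ± 4.70 to 400.2 ± 12.99 (2.37; limma adjusted p = 4.23e-12), with its other probe sets at 2.25 and 0.89. Prcp, the lysosomal carboxypeptidase that also activates plasma prekallikrein, fell from 142 ± 4.79 to 29.5 ± 2.33 (-1.80), and its other bright probe set gave -1.06. Prepl rose by 0.47 and Prep and Dpp8 fell by 0.37 and 0.32 in their brightest probe sets. Each of these 3 genes had another probe set past the threshold in the opposite direction (-0.91, 0.48 and 0.54), so their probe sets disagree in direction. Under poly-A spike scaling the brightest sets of Prep and Dpp8 gave 0.14 and 0.144 and did not pass (limma adjusted p = 0.182 and 0.236). Dpp4, the closest relative of Fap, went from 7.58 to 5.64, below the median probe set in both groups. It passed the test as lower (-0.12, limma adjusted p = 0.00153).

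**Figure D4:**
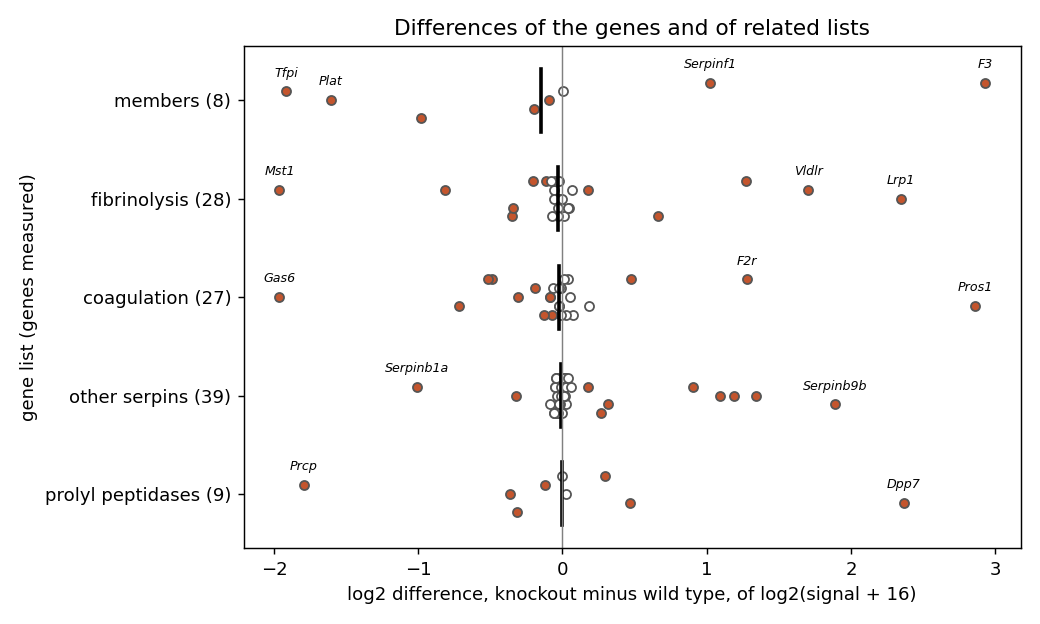
Log2 difference, MEF-DKO minus MEF-WT, on log2(signal + 16), of the 8 genes and of the measured genes of 4 related lists, 1 point per gene with vertical scatter only for legibility; filled points passed a limma adjusted p of 0.05 over all genes and black bars are list medians. Medians lie between -0.15 and -0.002, and Pros1 (2.86) and F3 (2.93) stand at the right end.

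By the distance between centred log2 values over the 6 arrays, the genes most like F3 were Pitpnc1 (distance 0.166), Net1 (0.171) and Hspa1b (0.195), with differences of 2.94, 2.89 and 2.93. Those most like Tfpi were Pde9a (0.192), Pold1 (0.204) and Selenbp1 (0.215), with differences of -1.94, -1.86 and -1.93. With 6 arrays in 2 groups, this measure reflects little more than a group difference of similar size.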

How the data were processed

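Total RNA (6 µg) of the cells was labelled with biotin, per the labels' protocols. The authors deposited 1 linear intensity for each probe set on each array. The submitters' processing notes name MAS5; how it was used or scaled, and its version, is not given in the sources used here. No detection call was used. The table held 45101 probe sets, 64 of them controls. The annotation gave 34945 probe sets 1 symbol, 932 several, and 9160 are unnamed here; 34741 matched by Entrez number the RefSeq gene table of GRCm38.p6, used for names.

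Groups came from the sample titles. Signals were transformed as log2(signal + 16), and the probe set with the highest mean log2 value stood for a gene. The test was limma's (version 3.58.1, R 4.3.3; lmFit and trended eBayes, two-sided), Benjamini-Hochberg adjusted over 18193 genes, and in a separate fit over all probe sets other than controls for the other probe sets; genes passed at an adjusted p under 0.05. The fit was tested on simulated data. Single array measures were compared by exact permutation. Named genes were the group itself, Abl1 and Abl2, up to 5 genes per list with the largest differences past 0.05 without overlap and above the median probe set, and the 3 genes most like F3 and Tfpi; S100a10, Plg, Serpinf2, Serpinh1 and Dpp4, the marker genes quoted and those in the closing section were named after their values were seen. The genes, lists and rules were chosen with earlier results of these data known.

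Alternatives were offsets of 1 and 64, quantile and median scaling, spike scaling, dropping dim genes, probe sets averaged, probe sets with the suffix x, s or a dropped, robust or untrended eBayes, a replicate block, array weights and leaving out each array. Promoter windows came from RefSeq (GRCm38.p6). Figures were drawn with matplotlib 3.10.9.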

Additional observations from a re-analysis of the deposited data

How the results depend on the processing

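F3, Tfpi, Plat and Serpinf1 kept their direction and call under all 19 alternatives, and Plaur under the 18 that gave a value, since its probe set ends in a. F3 ran from 2.28 to 3.39, Tfpi from -2.37 to -1.23, Plat from -1.86 to -0.81, Serpinf1 from 0.75 to 1.56 and Plaur from -1.22 to -0.50. Plau turned to 0.031 and Thbd to 0.042 under poly-A spike scaling (limma adjusted p = 0.655 and 0.304). Of the 8 genes, 5 to 7 were called. Thbd and Fap gave no value with dim genes left out.

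Counts of called list genes moved with the scaling. The fibrinolysis list went from 11 to 18 with arrays centred on the median, 24 with poly-A and 23 with hybridization spikes; the serpins from 10 to 25, 32 and 27; the coagulation list from 12 to 19 with median centring and 21 with hybridization spikes. Prolyl peptidases went from 7 to 4 with probe sets averaged. Calls over all 18193 genes moved as well, from 10866 to 13790 with median centring, 13743 with poly-A and 14063 with hybridization spikes. With probe sets averaged they were 10778. The cause of these moves was not tested.

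Deviations of same-numbered arrays correlated at 0.0384, 0.114 and 0.165. Differently numbered arrays were not compared in this way, so whether the replicate numbers pair the arrays was not settled. With the replicate number as a block, 7 of the 8 genes were called, as without it, and 10935 genes in place of 10866. The number of arrays limits the precision, and low signals limit Plau, Thbd and Fap.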

Other observations

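Some genes of the lists outside the naming rule also differed, and were picked after their values were seen. Procr, the endothelial receptor of protein C, fell from 213 to 169 (log2 difference -0.31), and F8, clotting factor VIII, rose from 9.35 to 19.4 (0.48; limma adjusted p = 4.4e-05). Sorl1, a sorting receptor that binds urokinase and its complexes, rose from 139 to 228 (0.66), and Plgrkt, a plasminogen receptor of the cell surface, fell from 333 to 260.0 (-0.34). Among serpins, Serpinb8 rose from 29.7 to 69.9 (0.91) and Serpini1, neuroserpin, an inhibitor of Plat, fell from 20.4 to 13.04 (-0.32). Under poly-A spike scaling none of Procr, Plgrkt and Serpini1 was called as a fall. The only falls called in their lists were then Gas6, Spint2, Anxa2, Mst1 and Serpinb1a.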
